A study of Homo sapiens with 4 samples.

Results

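Transcripts of 4 genes of MHC class I and CD1 antigen presentation (B2M, HLA-E, NLRC5 and CD1C) were followed in a B-cell lymphoma line after siRNA against MYC. The genes were taken by platform symbol and were chosen by their function with their log2 ratios on these same arrays already known, so their mean ratios are given as a description and without a test. They were 4 of 4603 named genes and were read by 19 of 15154 array features, of which 15 had a value on all 4 arrays. In all, 71 of 76 possible values were present. The cells were OCI-Ly10, a line established from a human diffuse large B-cell lymphoma, and all of them, controls included, had been electroporated. The RNA labelled with Cy5 came from cells given a pool of siRNAs against MYC at 4 uM. The Cy3 RNA on the same array came from control cells, which had received either a nonspecific siRNA against Renilla luciferase at the same concentration (arrays at 8 h and 24 h) or no siRNA (arrays at 6 h and 24 h). There was 1 array for each pairing of control with time, and the dyes were swapped on 0 of the 4. A value is the log ratio of Cy5 over Cy3, taken as log2, so that a positive value means more transcript with MYC siRNA. Neither the log base nor the direction is stated in the sources used here. The direction is likely rather than certain, since it rests on the dyes in the labels and on the sign of the MYC average.

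MHC class I molecules display peptides of the cell's own proteins to CD8 T cells. Each consists of a heavy chain held at the surface by the small invariant chain beta-2-microglobulin, the product of B2M. HLA-E is a less variable heavy chain that presents signal peptides of other class I chains to receptors on natural killer cells. NLRC5 is a nuclear member of the NOD-like receptor family that activates the promoters of class I genes, B2M included, and is itself induced by interferon gamma. CD1C has a heavy chain of the same fold, pairs with the same invariant chain and presents lipids, and it is carried by dendritic cells and by some B cells. MYC, the targeted gene, encodes a transcription factor that binds E-boxes and drives growth.

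The 2 genes whose averages lay above 0 on every array, B2M and CD1C, also had promoters in the RefSeq table of build GRCh38.p14, which are shown here to let their known control elements be compared. Both windows hold the 250 bases before the annotated start and the 50 after it, on the plus strand. That of B2M lies at chr15:44711267-44711566 and that of CD1C at chr1:158289673-158289972. Capitals mark matches on either strand to 4 motifs, and each sequence runs 5′ to 3′. The first motif is an element of the kind bound by interferon regulatory factors, searched as GAAA, any 2 bases and GAAA again. The second is the core of an X2 box, searched as TGACG. The third is the CCAAT box, which on the other strand reads ATTGG. The fourth is the E-box CACGTG, which reads the same on both strands.
B2M: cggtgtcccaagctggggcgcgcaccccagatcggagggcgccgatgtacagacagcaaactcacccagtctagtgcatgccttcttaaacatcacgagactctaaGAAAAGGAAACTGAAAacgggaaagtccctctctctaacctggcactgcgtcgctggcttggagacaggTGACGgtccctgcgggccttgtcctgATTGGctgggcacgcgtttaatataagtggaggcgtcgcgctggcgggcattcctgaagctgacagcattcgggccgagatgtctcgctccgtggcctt
CD1C: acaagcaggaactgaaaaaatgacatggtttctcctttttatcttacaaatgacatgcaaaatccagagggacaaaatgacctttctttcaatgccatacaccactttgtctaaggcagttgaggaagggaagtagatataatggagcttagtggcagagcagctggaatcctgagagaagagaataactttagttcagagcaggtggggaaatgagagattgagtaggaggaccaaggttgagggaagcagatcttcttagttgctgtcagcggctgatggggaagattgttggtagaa
The B2M window held 2 overlapping matches to the first element, which begin 144 and 138 bases before the start, followed by an X2-type core 75 bases and a CCAAT box 49 bases before it. X and CCAAT boxes of this kind belong to the module through which NLRC5 and its partner factors act on class I promoters. The CD1C window held 0 matches to any of the 4 motifs, and the E-box was in neither window. Of 35116 RefSeq promoter windows of this length, 3.57% held the interferon-type element, 24.6% the X2-type core, 34.6% a CCAAT box and 7.26% the E-box. These are matches of letters and not evidence of binding.

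The arrays held values for 12028 to 12784 features, with medians between -0.034 and 0.014. The SD over features was 0.45 on the 24 h array against no siRNA and 0.29 to 0.33 on the others. The average of MYC itself over its 4 features lay below 0 on each array. It was -1.26 (6 h, against no siRNA), -0.94 (8 h, control siRNA), -0.35 (24 h, control siRNA) and -1.03 (24 h, no siRNA). A single MYC feature read 0.113 on the 24 h array against control siRNA, where the others read -0.408, -0.592 and -0.505. All other MYC values lay below 0. Another of the features had no value on the arrays against no siRNA. Gene averages over features could be tested for 6798 rows with a value on all 4 arrays, where a row is a named gene or a feature without a symbol. Of these rows, 5.56% passed as higher and 10.2% as lower with MYC siRNA (limma, adjusted p under 0.05). The labels do not say whether the cultures were separate, so a p-value reflects only how these 4 arrays scatter, which may be partly technical. The arrays also differ in time and kind of control. In the test of the mean that scatter, like each SD over the arrays, therefore includes any such differences.

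CD1C stood highest of the 4 genes on every array. Its average and that of B2M were above 0 on all 4 arrays, as were those of 19.4% of all rows. Its gene average was 0.31 on the 6 h array (no siRNA), 0.50 on the 8 h array (control siRNA), 0.80 on the 24 h array against control siRNA and 0.96 on that against no siRNA. Both 24 h values exceeded both early ones, which held for 17.4% of all rows, and the mean of 0.64 ± 0.29 (SD, n = 4) corresponds, if the base is 2, to a 1.56-fold higher level with MYC siRNA. Of the 6798 rows, 13 had a higher mean. If the ratio ran the other way, CD1C would be the lowest of the 4 genes and 13 rows would lie below it. All 18 values of its 5 features lay above 0, so the features shared their direction while differing in size.

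Feature 25113_1 of CD1C read 0.49, 0.81, 0.84 and 1.17 on the arrays at 6 h, 8 h, 24 h against control siRNA and 24 h against no siRNA. Feature 17677_1 read 0.43, 0.56, 0.77 and 1.20 in the same order. Feature 16893_1 gave smaller ratios of 0.14, 0.33, 0.39 and 0.52. Among these 3 complete features the means thus spanned 0.34 to 0.83. The other features had no value on the 24 h array against no siRNA. Of these, 25222_1 read 0.40, 0.47 and 1.50 and 28855_1 read 0.08, 0.35 and 0.51 on the other 3 arrays. The CD1C average on that 24 h array therefore rests on 3 of 5 features, and over complete features alone its mean was 0.64 as well.

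B2M, the chain that both kinds of heavy chain need at the surface, was next in order. Its averages were 0.27 at 6 h, 0.10 at 8 h, 0.45 at 24 h relative to control siRNA and 0.48 at 24 h against no siRNA, with a mean of 0.32 ± 0.18 (SD, n = 4), or 1.25-fold if the base is 2. The 8 h array was lowest, and both 24 h values again lay above both early ones. Feature 27520_1 lay above 0 throughout, at 0.40, 0.21, 0.53 and 0.49, and feature 16763_1 read 0.14, -0.02, 0.37 and 0.46. The exception to the positive sign among the 8 values was thus a value close to 0 at 8 h. B2M was below CD1C on each array, by 0.04 at 6 h and by 0.35 to 0.49 on the other 3, and the mean difference, B2M minus CD1C, was -0.32 ± 0.20 (SD, n = 4).

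**Figure D1:**
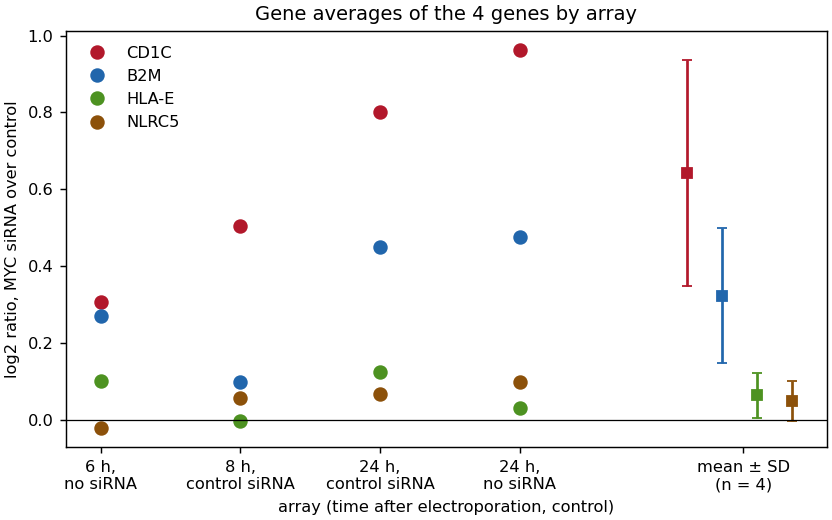
Log2 ratio (MYC siRNA over control) of the gene averages of CD1C, B2M, HLA-E and NLRC5 on each of the 4 arrays (points), and their mean ± SD over arrays (squares with bars, n = 4). CD1C is highest and B2M second on every array, while HLA-E and NLRC5 stay between -0.02 and 0.12.

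HLA-E averaged close to 0, but its features did not run together. The gene average was 0.10 at 6 h, -0.002 at 8 h, 0.12 at 24 h relative to control siRNA and 0.03 at 24 h against no siRNA (mean 0.06 ± 0.06, SD, n = 4). Over complete features alone the mean was 0.025. Of its 9 features, 3 lay above 0 wherever they had a value, 3 lay below 0 on all 4 arrays and 3 had both signs. Of all complete features, 19.6% lay above 0 and 24.6% below 0 on all 4 arrays, so features of either kind are common on these arrays.

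On the high side, feature 27098_1 read 0.45 at 6 h, 0.14 at 8 h, 0.54 at 24 h relative to control siRNA and 0.71 at 24 h against no siRNA. Feature 17590_1 read 0.27, 0.27, 0.53 and 0.39 in that order, and 27077_1, without a value at 6 h, read 0.17, 0.58 and 0.33. Their positive sign, which most B2M values also have, follows from the grouping. The highest of them, 0.71, exceeded the highest single value of B2M, 0.53. On the low side, feature 36906_1 read -0.18, -0.38, -0.31 and -0.56, feature 37749_1 -0.06, -0.21, -0.29 and -0.40, and feature 30514_1 -0.09, -0.07, -0.25 and -0.30. That these groups lie on opposite sides of 0 follows from how they are formed here. Between them, 16512_1 ran from -0.22 at 8 h to 0.13 at 24 h against no siRNA, 34294_1 from -0.05 on that 24 h array to 0.29 at 24 h against control siRNA, and 24273_1 read 0.28 and -0.01 on the arrays against control siRNA.

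The SD between the means of the 7 complete HLA-E features was 0.31, against SDs of 0.11 to 0.24 between arrays within a single complete feature and of 0.06 for the gene average. The features thus differed from each other by more than any of them varied between arrays. Over 1837 genes with at least 2 complete features the median SD between feature means was 0.17, and 14.4% of these genes had a larger one than HLA-E. All 9 features carry the same RefSeq accession in the platform annotation, and no source used here gives their sequences or places in the transcript. Class I heavy chains have closely similar transcripts, so a feature may also read other class I genes, which was not tested.

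The 3 features of NLRC5 also had opposite signs. Feature 33061_1 lay below 0 on all 4 arrays, at -0.66 (6 h), -0.35 (8 h), -0.62 (24 h, control siRNA) and -0.51 (24 h, no siRNA). Feature 34098_1 lay above 0 on the same arrays, at 0.35, 0.02, 0.48 and 0.56, and so did 34106_1, at 0.24, 0.49, 0.34 and 0.25. The sign of the ratio for the class I activator thus depended on the feature read.

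The gene average of NLRC5 cancelled these values and stayed at -0.02, 0.06, 0.07 and 0.10 (mean 0.05 ± 0.05, SD, n = 4). With the median over features in place of the mean it was 0.21. The SD between feature means was 0.51, and 1.52% of the 1837 genes had a larger one. The 3 features also share 1 accession. For B2M and CD1C the SDs between complete features were 0.12 and 0.26, and 68.4% and 24.7% of genes had larger ones. The mean difference between HLA-E and NLRC5, 0.01 ± 0.09 (SD, n = 4; HLA-E minus NLRC5), was smaller than its spread, and HLA-E was the higher of the pair on 2 of 4 arrays.

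**Figure D2:**
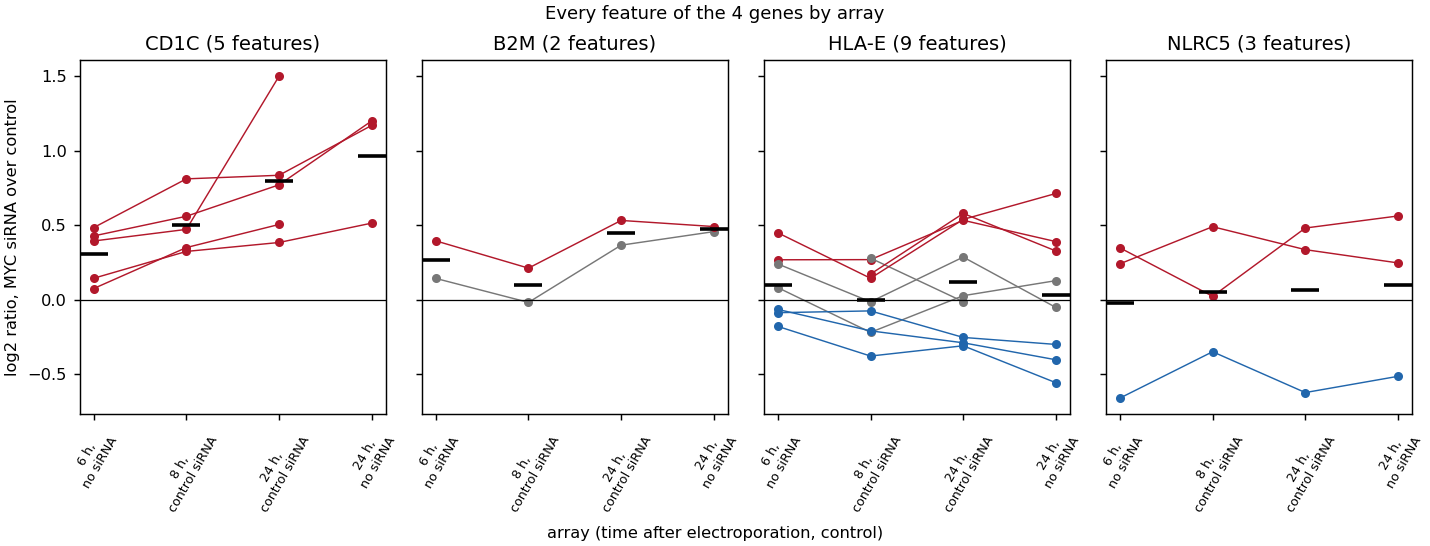
Log2 ratio (MYC siRNA over control) of each of the 19 features on the 4 arrays, with points of 1 feature joined by a line and black bars for the gene average. Red features lie above 0 wherever measured, blue ones below 0 on all 4 arrays and grey ones have both signs: all 5 features of CD1C are red, while HLA-E has 3 red and 3 blue and NLRC5 2 red and 1 blue.

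Time was compared as 24 h minus early (6 h and 8 h), with the kind of control as a second term. This fit leaves 1 residual degree of freedom a gene, and limma drew the spread mostly from all rows (17.5 prior degrees of freedom). CD1C averaged 0.88 on the 24 h arrays and 0.41 on the early ones, a difference of 0.48 with a 95% interval of 0.08 to 0.87. Its unadjusted p was 0.0202, but it did not pass over all rows (limma adjusted p = 0.363), and 10.1% of all rows had an unadjusted p under 0.05. The difference was 0.30 between the arrays against control siRNA and 0.66 between those against no siRNA. Over the 3 complete features, a setting chosen after seeing the data for these pairs, it was 0.10 against control siRNA and 0.61 against no siRNA, and 0.35 in all (limma adjusted p = 0.586). Feature 25222_1, which has no value on the 24 h array against no siRNA, read 1.50 on the later and 0.47 on the earlier array of the control siRNA pair. B2M averaged 0.46 at 24 h and 0.18 early, a difference of 0.28 (95% interval -0.11 to 0.66; limma adjusted p = 0.687), with 0.35 against control siRNA and 0.21 against no siRNA. The 24 h array against no siRNA had the widest spread of values. With all arrays centred and scaled to the same spread, the time difference was 0.32 for CD1C (limma adjusted p = 0.641). For B2M it was then 0.20 (limma adjusted p = 0.765).

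The averages of HLA-E and NLRC5 gave no time difference beyond their error. HLA-E averaged 0.08 at 24 h and 0.05 early (difference 0.03, 95% interval -0.36 to 0.41; limma adjusted p = 0.975). Its pairs ran in opposite directions, with 0.13 against control siRNA and -0.07 against no siRNA. Those of NLRC5 were 0.01 and 0.12 in the same order. NLRC5 averaged 0.08 at 24 h and 0.02 early (difference 0.07, 95% interval -0.32 to 0.45; limma adjusted p = 0.948). These intervals leave room for changes as large as that of B2M in either direction. Of all rows, 0.118% passed for time, and 0 of the 4 genes did.

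By feature, 8 of the 15 complete features had both 24 h values above both early ones, and 2 had both below. Over all complete features these shares were 17.3% and 19.2%. The 8 were all 3 complete features of CD1C, both of B2M, 17590_1 and 27098_1 of HLA-E and 34098_1 of NLRC5. The 2 that lay lower at 24 h were the HLA-E features 30514_1 and 37749_1, so 2 HLA-E features above 0 and 2 below it lay further from 0 on both 24 h arrays than on either early one. Features of 1 gene share its transcript and count as 1 gene, and 0 of the 15 passed for time when single features were fitted (0.728% of all features did). The lowest adjusted p among them was 0.367 (limma), for 17677_1 of CD1C.

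**Figure D3:**
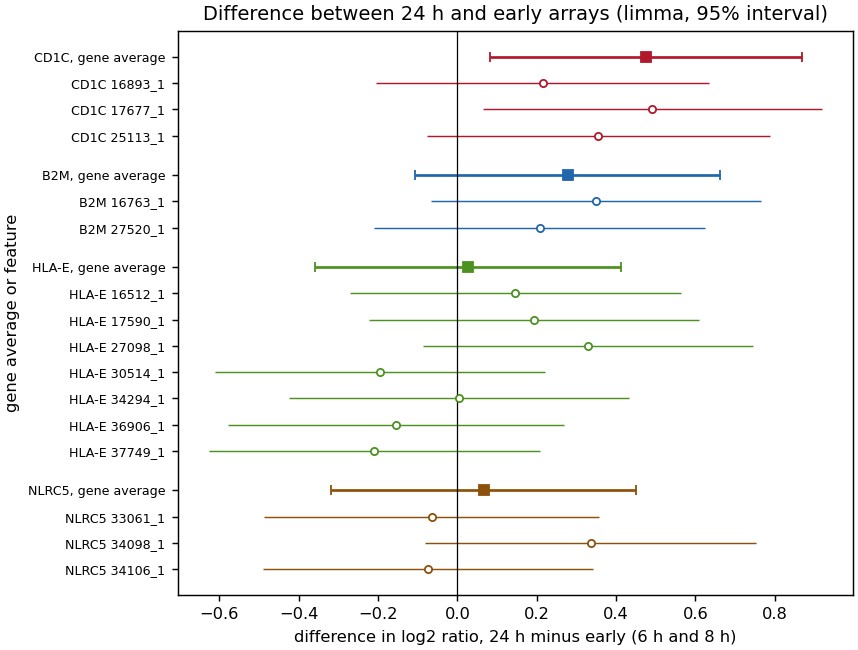
Difference in log2 ratio, 24 h minus early arrays, for the gene averages (filled squares) and the complete features (open circles) of the 4 genes, with 95% intervals from limma. The interval of the CD1C average (0.08 to 0.87) and that of its feature 17677_1 lie above 0, and all other intervals include 0. The genes were chosen with these values known, so the intervals are a description.

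The kind of control was compared as control siRNA minus no siRNA. CD1C averaged 0.65 against control siRNA and 0.63 against no siRNA, a difference of 0.02 (95% interval -0.37 to 0.41). B2M averaged 0.27 against control siRNA and 0.37 against no siRNA (difference -0.10, 95% interval -0.48 to 0.29). HLA-E and NLRC5 differed by -0.01 (95% interval -0.39 to 0.38) and 0.02 (95% interval -0.36 to 0.41). Adjusted p in limma was 0.959 or more for all 4 genes, and 0.0883% of all rows passed. The positive averages of CD1C and B2M were thus found with either control. Each array has its own identifier in the labels, which name no batch. The identifiers lie close together within a kind of control and apart between the kinds. Whether the arrays of either kind of control were run apart is not given in the sources used here. If they were, the kind of control could not be told apart from the run.

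Of 67 other genes listed for class I and CD1 presentation, 37 had a value on all 4 arrays and were tested. With MYC siRNA 3 of these rose (8.11%, against 5.56% of all rows), 2 fell (5.41%, against 10.2%) and 32 did not pass. Their median was 0.10, against -0.003 over all rows, and 0.03 over complete features alone. The list was drawn up with earlier results of these data known, and these shares rest on 3 and 2 genes.

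Among the heavy chains the 5 features of HLA-B averaged 0.08 at 6 h and 0.03 at 8 h. At 24 h they averaged 0.44 relative to control siRNA and 0.39 against no siRNA. Both 24 h values thus lay above both early ones, as in B2M and in 17.4% of all rows. The time difference of 0.36 for HLA-B did not pass (limma adjusted p = 0.526). The HLA-B mean of 0.23 ± 0.21 did not pass either (limma adjusted p = 0.131), nor did HLA-G at -0.01 ± 0.24 (SD, n = 4 each). The other CD1 genes had means nearer to 0 than CD1C. CD1D, which presents lipids to invariant natural killer T cells, was at 0.24 ± 0.15 and did not pass (limma adjusted p = 0.093), CD1B was at 0.04 ± 0.22 and CD1A at -0.12 ± 0.17 (SD, n = 4 each). CD1A and CD1B were named after their values were seen. Of the stress ligands, MICA was at 0.24 ± 0.07 and ULBP2 at 0.25 ± 0.27, and neither passed.

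In peptide supply and loading 1 of 10 genes rose, 2 fell and 7 did not pass. TAPBP, which encodes tapasin, the bridge between the peptide transporter and the heavy chain, read 0.34 at 6 h, 0.24 at 8 h, 0.35 at 24 h relative to control siRNA and 0.54 at 24 h against no siRNA. It rose by 0.37 ± 0.12 on average (SD, n = 4; limma adjusted p = 0.0277). CANX, the lectin chaperone calnexin that binds newly made heavy chains, fell, with values of -0.21, -0.32, -0.45 and -0.93 in the same order and a mean of -0.48 ± 0.32 (SD, n = 4; limma adjusted p = 0.0321). PSME3, an activator subunit of the nuclear proteasome, also fell, with a mean of -0.34 ± 0.12 (SD, n = 4; limma adjusted p = 0.0333). The immunoproteasome subunit gene PSMB9 was at 0.23 ± 0.31, with 0.69 at 8 h and 0.05 to 0.09 elsewhere, and the chaperone genes CALR and PDIA3 were at -0.12 each. None of these last 3 passed. CANX rested on 1 feature.

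Of 14 genes that control class I transcription, RFX5 rose and 13 did not pass. RFX5, a DNA-binding subunit of the complex that occupies the X box, read 0.26 at 6 h, 0.26 at 8 h, 0.30 at 24 h relative to control siRNA and 0.46 at 24 h against no siRNA (mean 0.32 ± 0.09, SD, n = 4; limma adjusted p = 0.0367). Its partner gene RFXAP was at -0.24 ± 0.16 and did not pass. CIITA, the class II counterpart of NLRC5, averaged 0.22 ± 0.17 over 11 features and JAK2, a kinase of the interferon gamma receptor, 0.18 ± 0.04, and neither passed (limma adjusted p = 0.131 and 0.142).

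GM2A, which encodes a lipid transfer protein that can load CD1 molecules, was the only tested gene of its list and rose. It read 0.73 at 6 h, 0.26 at 8 h, 0.63 at 24 h relative to control siRNA and 0.46 at 24 h against no siRNA (mean 0.52 ± 0.21, SD, n = 4; limma adjusted p = 0.019; 1 feature). Genes of receptors for class I were at 0.21 ± 0.11 (CD8A), 0.20 ± 0.13 (LILRB1) and 0.14 ± 0.18 (CD8B), and 0 of 3 passed. With 1 array left out, GM2A passed without the 8 h array (0.61, limma adjusted p = 0.0339) and with the 24 h array against no siRNA omitted (0.54, limma adjusted p = 0.0465). TAPBP, CANX, PSME3 and RFX5 passed only with all 4 arrays, and had adjusted p values of 0.0526 to 0.105 otherwise. Their left-out means kept the sign, from 0.31 to 0.41 for TAPBP, 0.27 to 0.34 for RFX5, -0.57 to -0.33 for CANX and -0.40 to -0.31 for PSME3.

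**Figure D4:**
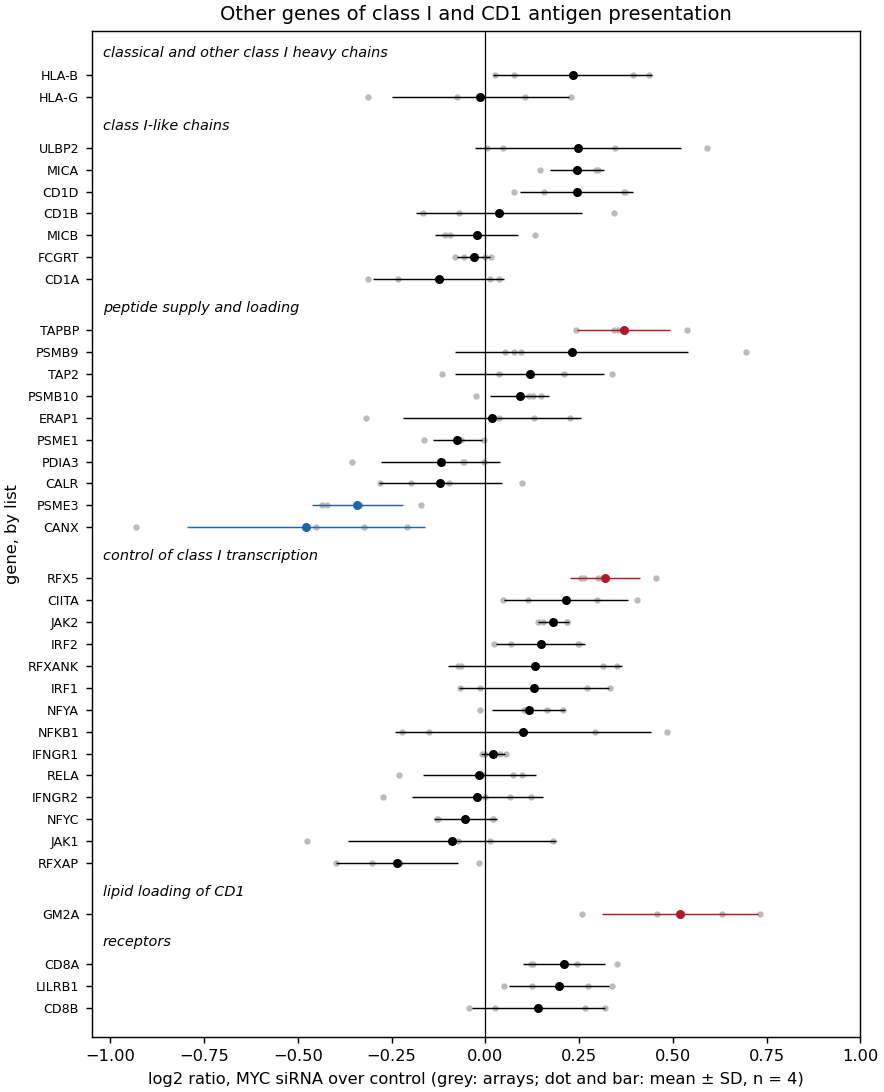
Log2 ratio (MYC siRNA over control) of the 37 tested genes of the 6 lists, by array (grey points) and as mean ± SD over the 4 arrays (dots and bars). Red genes rose (TAPBP, RFX5, GM2A), blue genes fell (PSME3, CANX) and black ones did not pass the test over all rows.

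Since CD1C also marks dendritic cells, markers of other cell types were set beside it. Of monocyte and dendritic cell markers 3 of 10 listed could be tested, and ITGAX rose, with 0.18 at 6 h, 0.14 at 8 h, 0.83 at 24 h relative to control siRNA and 0.88 at 24 h against no siRNA (mean 0.51 ± 0.41, SD, n = 4; limma adjusted p = 0.0407). The median of the 3 ran from -0.17 to 0.34 over the arrays. ITGAX encodes the integrin chain CD11c, which some B cells carry too. Its values averaged 0.86 on the 24 h arrays and 0.16 on the early ones, a difference that did not pass (limma adjusted p = 0.129). Of the other 2, CD1A averaged -0.27 at 24 h and 0.02 early, and CD1B 0.09 at 24 h and -0.02 early, and neither passed for its mean or for time. The call for ITGAX held without the 8 h array (0.63, limma adjusted p = 0.0464). It was lost without the 6 h array (0.62, limma adjusted p = 0.0626), the 24 h array against control siRNA (0.40, limma adjusted p = 0.144) or that against no siRNA (0.38, limma adjusted p = 0.127).

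Of B-cell markers CD79A (0.41 ± 0.27) and CD72 (0.41 ± 0.32) rose (SD, n = 4 each), 2 of 7 tested, against 5.56% of all rows. The 5 that did not pass had means of 0.20 (CD79B), 0.10 (PAX5), -0.06 (MS4A1), -0.06 (CD22) and -0.22 (BLNK, below 0 on all 4 arrays), and the median of the 7 was 0.10. Both calls were lost with any 1 array left out, at limma adjusted p values of 0.0711 to 0.103 for CD79A and 0.0746 to 0.124 for CD72. Without the 24 h array against no siRNA their means were 0.275 and 0.255. With the 6 h array left out 0 rows passed at all, and with the 24 h array against control siRNA left out 4 did. Of T and NK cell markers 0 of 7 passed. Ratios between the channels do not show whether a marker is present, and the part of these markers in the CD1C values was not tested. All RNA came from cultures of the OCI-Ly10 line. In RNA of whole cultures, a change in how many cells carry a transcript and in its amount per cell cannot be told apart.

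The genes whose 4 log2 ratios lay nearest to those of each member were sought among the other 3953 named genes, by Euclidean distance over the 4 arrays. Nearest to CD1C were PTPRF, a receptor tyrosine phosphatase gene, at a distance of 0.33, the fatty acid transporter gene CD36 at 0.35 and DPYD, of pyrimidine breakdown, at 0.37. PTPRF read 0.58 at 6 h and 0.51 at 8 h, both above CD1C, and 0.69 and 0.82 at 24 h, both below it, while CD36 read 0.12, 0.29, 0.86 and 0.77. The other 3 genes had closer neighbours. For B2M these were ATOSA (0.08), the death-associated kinase gene DAPK2 (0.09) and CMC1 (0.09), for HLA-E NMT2 (0.05), CPNE1 (0.06) and CDA (0.06), and for NLRC5 SWAP70 (0.06), ZEB1 (0.06) and IL6ST (0.07). Since the averages of HLA-E and NLRC5 mix features of opposite sign, their neighbours resemble that average and not any single feature. A distance over 4 arrays is a description, and all genes share the arrays and the dye orientation. It also depends on how many genes have similar means, and 13 of 6798 rows had a higher mean than CD1C. The larger distances of CD1C were not compared with those of other genes at such means, so they do not by themselves mark a separate pattern.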

How the data were processed

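The values are the log2 ratios that the authors deposited in the series' value table, 1 per feature and array. Their background correction, normalization and log base are stated in no source used here, and scanner intensities were not used. Base 2 was assumed, and each value in fold rests on it. Because signal over background is unknown, no filter on dim features was possible.

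Symbols came from the platform annotation, updated by Entrez ID for 10124 features through RefSeq names (GRCh38.p14), with 10165 features under 1 symbol, 4 under several (not named) and 4985 under none. Features of 1 symbol were averaged per array over those present, which left 6798 rows complete on the 4 arrays. Limma 3.58.1 (lmFit, eBayes; R 4.3.3) tested the mean against 0, and, in a second model, time and control kind, with Benjamini-Hochberg adjustment over all rows and a threshold of 0.05. The code was tested on simulated data. The 4 arrays limit the precision: the median standard error of a row's mean was 0.0951.

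Members and lists were chosen with earlier results of these data known. By rule, the pathway genes named are those past the test and up to 3 more per list with the largest absolute mean, and for each member the 3 nearest genes. Marker genes past the test were named by rule, and the other tested B-cell and dendritic cell markers after their values were seen. Listed genes without a value on all 4 arrays were not analysed here.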

Additional observations from a re-analysis of the deposited data

Results flagged for a closer look

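The 4 members, their complete features, MYC and the other named genes were screened by Dixon's test for an array far from the other 3. Chance gives this in about 1 group in 20, so a few such arrays are likely among this many groups. It was found for 4 genes. These were PSMB9 at 8 h against control siRNA (0.69), PDIA3 at 6 h against no siRNA (-0.36), CD79A at 24 h against no siRNA (0.81) and SWAP70 at 6 h against no siRNA (-0.044). CD1A lay below 0 on both 24 h arrays and above 0 on both early arrays, with a difference of means of -0.30 (limma adjusted p = 0.667). MS4A1, CD22 and IL6ST lay above 0 on both 24 h arrays and below 0 on both early ones, with differences of 0.42, 0.21 and 0.0938 (limma adjusted p = 0.441, 0.775 and 0.918). None of these 4 differences passed the test for time. Of all rows, 17.4% had both 24 h values above both early ones. How many of them also changed sign was not counted.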

How the results depend on the processing

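Of 124 recomputed values, 87 kept their direction and their side of the threshold or size, 28 moved and 9 changed sign. The labels give the arrays no replicate numbers, and time was compared with the kind of control as a term. The NLRC5 mean was 0.21 with the median over features, against 0.05. Changes of sign concerned differences close to 0, none of them past the test: HLA-E by time with the median over features (-0.001), NLRC5 by time over single features (-0.064), HLA-E by control over single features (0.0245), NLRC5 by control with centred arrays (-0.0097) and with the median over features (-0.0645), and CD1C by control with centred arrays (-0.014), complete features (-0.0425), the median over features (-0.16) and single features (-0.004). The cause was not tested. Left-out arrays moved the means of CD1C from 0.54 to 0.76, B2M from 0.27 to 0.40, HLA-E from 0.04 to 0.09 and NLRC5 from 0.03 to 0.07.

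Rows lower with MYC siRNA numbered 695, but 1124 with time and control as terms and 1251 over single features, and 0 to 310 with 1 array left out, a fit with fewer residual degrees of freedom. The rows higher numbered 378, and 856, 720 and 0 to 131 under the same settings. In both directions together 441 rows passed without the 8 h array, 4 without the 24 h array of the control siRNA pair, 234 without that of the no siRNA pair and 0 without the 6 h array (limma; 2179 then had an unadjusted p under 0.05). Rows past the test for time numbered 8, and 61 with centred arrays, 0 with scaled arrays, 26 over complete features, 98 with the median over features, 0 with time as the only term and 74 over single features. For the kind of control they numbered 6, and 87, 0, 37, 162, 0 and 57 in the same order. The pathway median of 0.10 was 0.0286 over complete features and 0.0587 to 0.103 with 1 array left out.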
